A study of Mus musculus with 9 samples.

Results

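Mouse macrophages lacking Ndufa4 were compared with wild-type macrophages across the 10897 genes, of 29763 in the deposited table, that reached at least 1 TPM (a length-normalised share of a library's transcripts) in at least 3 of the 6 libraries compared. These were 6 of the 9 libraries of the series. All cells were bone marrow-derived macrophages, that is, primary cells differentiated from mouse marrow, here over 7 days with 30% supernatant of L929 cells as the source of macrophage growth factor. Both groups had then been exposed to interferon-gamma at 40 ng/ml for 12 h, so neither is an unstimulated state, and polyadenylated RNA was sequenced. The wild-type group and the Ndufa4-/- group had 3 libraries each, and the other 3 libraries of the series, from a Ndufa4l3-miR147 knockout, enter only where stated. The labels call the replicates technical and do not say how many mice gave the cells. The p-values therefore measure the spread between libraries only, and the deletion cannot be told apart from anything else in which the cells of the genotypes differed.

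Ndufa4 is a small protein associated with complex IV, cytochrome c oxidase, which passes electrons from cytochrome c to oxygen in the inner mitochondrial membrane. In inflammatory macrophages the related protein Ndufa4l3, also known as Nmes1 and encoded by a transcript that also carries the microRNA miR-147, can take its place. Interferon-gamma acts through Jak kinases to induce antigen presentation, guanylate-binding proteins and chemokines, and sterol synthesis is a pathway that macrophages regulate together with interferon responses.

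The knockout libraries did not spread evenly. Replicate 3 of the knockout lay at 36.9 on the first principal component of the 6 libraries, which held 45.2% of the variance, while the other 5 lay between -12.4 and -0.265. Its upper quartile was 7.79 TPM over all entries, against 9.25 to 9.63 TPM in the others. Genes with long transcripts were low in it. In the fifth of genes with the shortest transcripts its median difference from knockout replicates 1 and 2 was -0.01 on the log2 scale, and in the fifth with the longest it was -0.31. The median within-group SD of log2 values was 0.068 in wild type, 0.166 in the knockout and 0.0913 in the knockout without that library. The main results are therefore given with all 6 libraries and again without knockout replicate 3. A value marked as without replicate 3, beside an adjusted p, is the log2 fold change when that knockout library was left out. Read depth is not recorded in TPM and is unknown. The macrophage markers Csf1r, the receptor for macrophage colony-stimulating factor, and Cd68 were at 953 to 993 and at 2211 to 2640 TPM in the 6 libraries. Tyrobp, a signalling adaptor of macrophages, was listed at 0 in all of them, so a listing at 0 can be a failed estimate.

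Ndufa4 itself (GRCm38 chromosome 6, 11900292 to 11907497, minus strand, protein coding) was listed at 0, 0.303 and 0 TPM in the wild-type libraries and at 0 in each knockout library. A gene of the respiratory chain listed at 0 in wild-type cells checks nothing about the knockout label. Its neighbour Phf14, a PHD finger chromatin protein whose annotated start lies 312 bases from that of Ndufa4 on the opposite strand, was named after its values were seen. Phf14 was at 16.1, 17.3 and 16.6 TPM in wild type and at 9.65, 9.76 and 11 TPM in the knockout. It fell by 0.66 ± 0.09 (limma adjusted p = 0.02), and by 0.72 without knockout replicate 3 (limma adjusted p = 0.0069). Phf14 was the only gene called among the 32 tested within 10 Mb of Ndufa4, with or without that library. Over all genes 2.22% were called, or 8.53% without it, so this count is no result about the region. The median of the 32 genes was -0.15, beside -0.076 for all genes, and -0.05 beside -0.032 without knockout replicate 3. The Ndufa4l3 transcript, listed as AA467197 (chromosome 2, 122636986 to 122641191, plus strand), was at 365, 358 and 355 TPM in wild type and at 526.5, 472 and 519 TPM in the knockout. The groups did not overlap, and AA467197 rose by 0.49 ± 0.06 (limma adjusted p = 0.013), or 0.47 without knockout replicate 3 (0.011). Its limma adjusted p reached 0.13 over the alternatives and was 0.092 when all 9 libraries were fitted, a fit that includes the knockout of this gene at 2.21 to 4.50 TPM. Another relative, Ndufa4l2, varied within both groups, at 0.239, 10.8 and 7.71 TPM in wild type and 4.45, 3.11 and 0.544 TPM in the knockout.

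In the knockout, 12 sterol synthesis genes, 4 fatty acid genes and 8 type I interferon-stimulated genes fell, 4 MHC class II genes and the immediate early genes Fos and Myc rose, and 0 members of 4 respiratory chain lists were called. Of the called genes that reached a mean of 5 TPM in the higher group and had a gene symbol other than a gene-model number, the protease gene Ctse fell most and Tmeff1 rose most. Log2 fold changes are given on the log2(TPM + 1) scale as estimate ± SE, which understates changes of genes with few TPM. A called gene is one whose limma p, adjusted by Benjamini-Hochberg over all genes tested, was under 0.05. With 6 libraries 242 genes were called, 2.22% of those tested. Of these 84 were higher (0.771%) and 158 lower (1.45%) in the knockout. Changes of at least 2-fold numbered 25, of which 6 were rises and 19 falls. The median of all genes was -0.076. Each called gene had groups that did not overlap, which held for 31.5% of all genes tested, for 9.52% with the knockout higher and for 22% with it lower. Where groups of a called gene are said below to be apart, this describes the values and adds no support to the call.

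When knockout replicate 3 was left out, 8.53% of the genes tested were called, 356 higher (3.27%) and 573 lower (5.26%), and 37 of them changed at least 2-fold. All 242 genes called with 6 libraries were among them, and they made up 26% of them. The direction of these 242 genes could not turn, since their groups did not overlap. The median of all genes was then -0.032. More calls were lost when a wild-type library was left out. The 80 named genes that were called kept their sign in each of these fits. This was fixed in advance, since groups without overlap keep their order when a library is left out. The median of all genes stayed between -0.078 and -0.074. The fit uses 1 spread per gene for both groups, whose median SD was 0.068 in wild type and 0.166 in the knockout. The part of this unequal spread in the lost calls was not tested. Leaving out wild-type replicate 1 left Ctse and the gene model Gm21748 called, leaving out replicate 2 left Ctse, and leaving out replicate 3 left Adam8, Cd14, Ctse, Cxcr4, Fads2, Slco4a1, the pseudogene Trmt112-ps2 and Upp1. Leaving out knockout replicate 1 or 2 gave 125 and 105 calls. Rises made up 34.7% of the calls, and 50% after median-of-ratios scaling or quantile normalization.

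**Figure D1:**
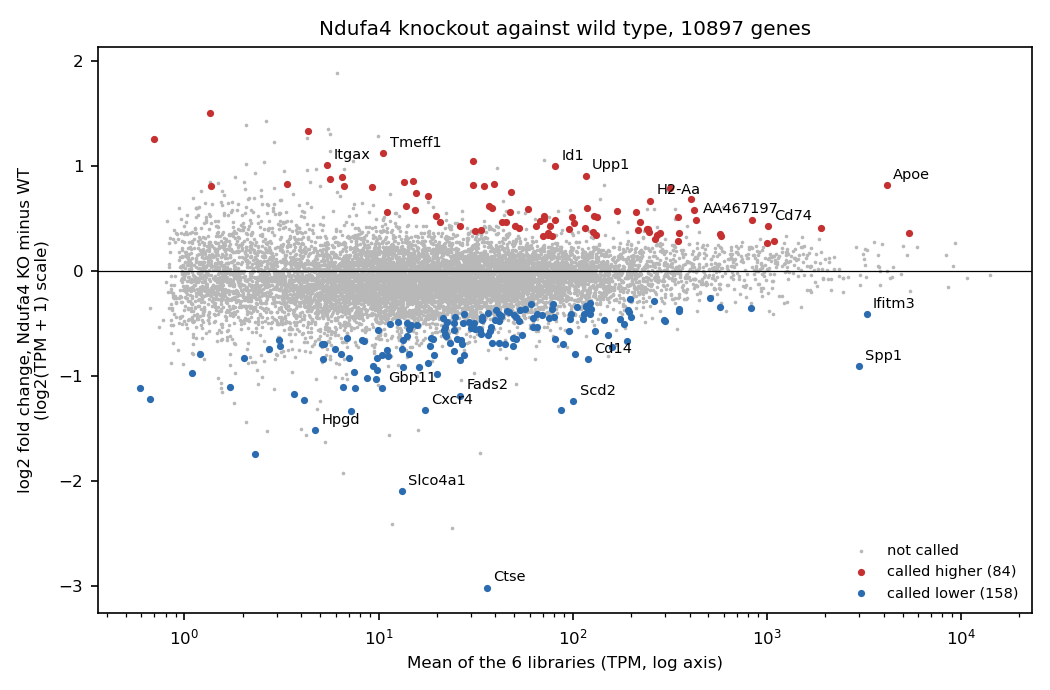
Log2 fold change (knockout minus wild type, log2(TPM + 1) scale) against the mean TPM of the 6 libraries on a log axis, 1 point per gene. Red and blue points are the 84 genes called higher and the 158 called lower, and Ctse lies lowest at -3.02.

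**Figure D2:**
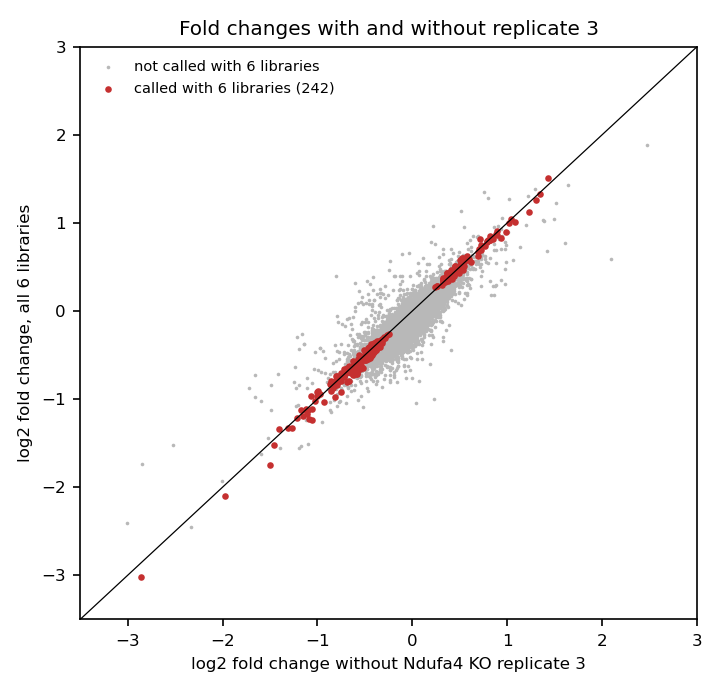
Log2 fold change of each gene with all 6 libraries (y axis) against that without knockout replicate 3 (x axis), with the line of equal values. The 242 genes called with 6 libraries, in red, lie near the line. They are on the same side of 0 in both because their groups do not overlap.

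Ctse, encoding cathepsin E, an endosomal aspartic protease of antigen-presenting cells (chromosome 1, 131638306 to 131675505, plus strand), was at 64.5, 64.4 and 65.6 TPM in wild type and at 8.22, 7.86 and 5.49 TPM in the knockout. Every knockout library lay far below every wild-type library. Ctse fell by 3.02 ± 0.14 (limma adjusted p = 0.0013), fell by 2.86 without knockout replicate 3 (limma adjusted p = 2e-05), and was the only named gene called in all 18 alternatives run. Slco4a1, an organic anion transporter, was at 27.6, 20.7 and 17.9 TPM against 5.28, 4.29 and 3.49 TPM, a fall of 2.10 ± 0.19 (limma adjusted p = 0.0097, -1.98 without replicate 3). Its groups were well separated although the wild-type libraries differed among themselves, and leaving out wild-type replicate 1 or 2 lost the call (limma adjusted p at most 0.097).

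Hpgd, which inactivates prostaglandins, was at 8.31, 7.84 and 6.33 TPM in wild type and at 2.46, 1.72 and 1.73 TPM in the knockout, a change of -1.52 ± 0.15 (limma adjusted p = 0.011, -1.46 without replicate 3). The stress-induced cytokine Gdf15 was at 11.2, 11.5 and 9.47 TPM against 2.66, 4.29 and 4.06 TPM and fell by 1.34 ± 0.17 (limma adjusted p = 0.015, -1.41 without replicate 3). Cxcr4, the receptor of the chemokine Cxcl12 (chromosome 1, 128588199 to 128592293, minus strand), was at 24.6, 24.9 and 26.1 TPM against 10.3, 9.34 and 8.66 TPM. It fell by 1.33 ± 0.09 (limma adjusted p = 0.0046, -1.27 without replicate 3). No library of one group reached into the other for any of these genes, which the choice of the largest falls required. Further down the order of falls came the costimulatory receptor Cd28 with -1.23 ± 0.15, the vesicle GTPase Rab15 with -1.17 ± 0.13, Rapsn, which anchors acetylcholine receptors at the muscle synapse, with -1.12 ± 0.10, and the sialyltransferase St6gal1 with -1.03 ± 0.11. The spindle protein Psrc1 fell by 1.02 ± 0.12 and the endosomal protein Wdfy1 by 0.98 ± 0.16, with limma adjusted p between 0.0097 and 0.038 for these 6 genes. The 9 genes from Hpgd to Wdfy1 changed by -1.46 to -0.81 without replicate 3. Among them only Cxcr4 stayed called when a wild-type library, replicate 3, was left out. Spp1, the secreted phosphoprotein osteopontin, fell from 3952, 3779 and 3946 TPM to 2307, 1983 and 1927 TPM. Its fold change was -0.91 ± 0.08 (limma adjusted p = 0.0084), and -0.86 without knockout replicate 3.

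Tmeff1, a membrane protein with follistatin domains, was at 6.30, 6.67 and 5.87 TPM in wild type and at 16.5, 15.6 and 12.7 TPM in the knockout, a rise of 1.12 ± 0.12 (limma adjusted p = 0.011, 1.23 without replicate 3). Id1, an inhibitor of basic helix-loop-helix transcription factors, was at 52.4, 55.5 and 53.0 TPM against 126.8, 95.1 and 104.8 TPM and rose by 1.0 ± 0.11 (limma adjusted p = 0.011, 1.02 without replicate 3). Upp1, the uridine phosphorylase that splits uridine into uracil and ribose phosphate, was at 82.0, 76.7 and 83.8 TPM against 142, 160.0 and 156 TPM and rose by 0.91 ± 0.07 (limma adjusted p = 0.0055, 0.89 without replicate 3). In all of these the lowest knockout library exceeded the highest wild-type library, which the choice of the largest rises required. Apoe, the apolipoprotein that macrophages secrete with cholesterol, was at 2952, 3035 and 2951 TPM in wild type and at 4643, 5122 and 6145 TPM in the knockout. It rose by 0.82 ± 0.10 (limma adjusted p = 0.014), and by 0.71 without knockout replicate 3, its highest library. Itgax, the integrin subunit CD11c, was at 3.31, 3.28 and 3.23 TPM against 8.0, 8.13 and 6.75 TPM and rose by 1.01 ± 0.11 (limma adjusted p = 0.011, 1.08 without replicate 3).

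The 15 largest rises also held Fos and Myc, described with the immediate early genes, and 7 protein-coding genes that rose by 0.80 to 0.90, and by 0.79 (Gpr84) to 0.99 (Lrrc4) without knockout replicate 3. They were Lrrc4, a leucine-rich repeat protein, Trib1, a pseudokinase that limits C/EBP factors, Cdca7, a Myc-responsive nuclear protein, Cd5l, a secreted scavenger receptor protein of macrophages, Zmynd15, the ADP-ribosyl cyclase Bst1 and Gpr84, a receptor for medium-chain fatty acids. The pseudogene Trmt112-ps2 rose by 1.05 ± 0.11 (1.04 without replicate 3), and since it can share reads with its parent gene its value is uncertain. Of the 15 largest rises, Upp1 and Trmt112-ps2 stayed called without wild-type replicate 3 and none without wild-type replicate 1 or 2, and the highest limma adjusted p of the 15 over all alternatives was 0.15. Adam8, a membrane metalloprotease, and Plau, urokinase, were named after their values were seen. Adam8 rose by 0.79 ± 0.05 from 229, 234 and 232 TPM to 410, 392 and 400.5 TPM (limma adjusted p = 0.0039, 0.79 without replicate 3). Plau rose by 0.69 ± 0.07 to 503 ± 35.1 TPM (SD, n = 3, limma adjusted p = 0.011, 0.72 without replicate 3).

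**Figure D3:**
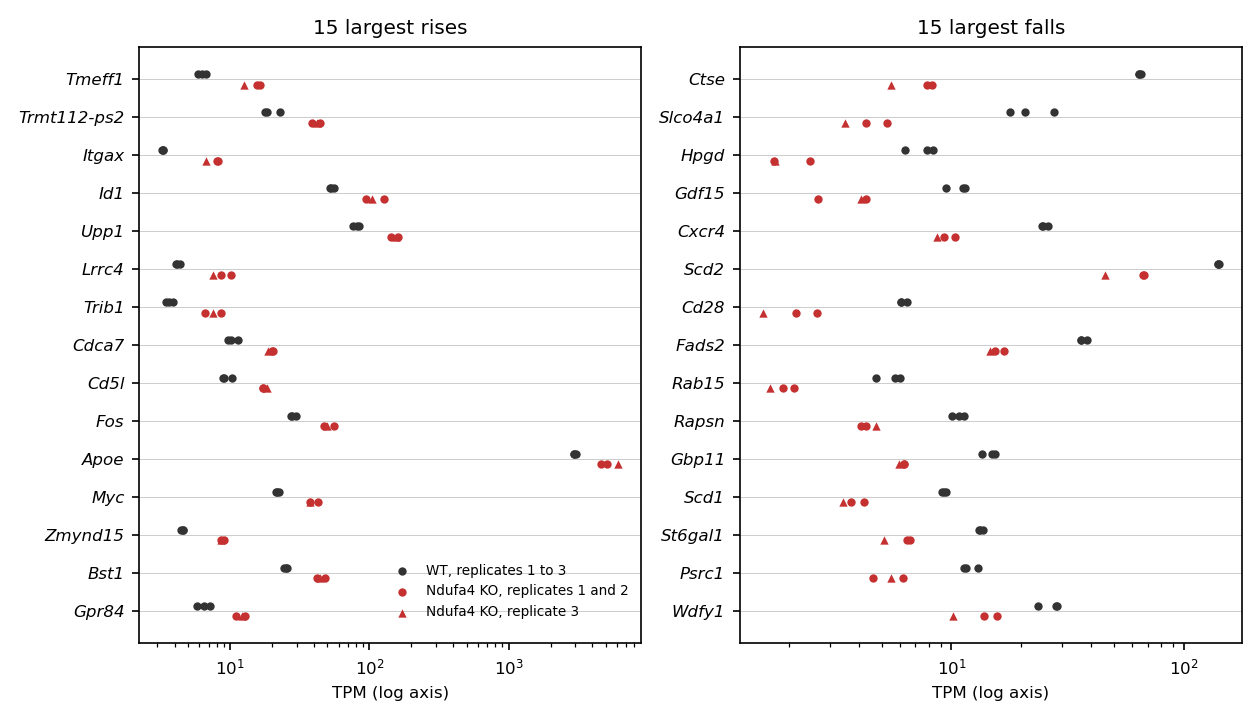
TPM on a log axis in each wild-type library (black) and knockout library (red, with replicate 3 as a triangle) for the 15 largest called rises and the 15 largest called falls. The groups are apart in each row because the choice of these genes required it. Replicate 3 is the lowest knockout library in many of the falls.

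Sterol synthesis transcripts were lower in the knockout. Acetyl-CoA is built into cholesterol through mevalonate, isoprenoids, squalene and lanosterol, and the transcription factor Srebf2 drives most genes of this route when cells are short of sterols. Of 27 measured members of the list of cholesterol synthesis genes and SREBP targets, 12 fell and 0 rose, against 1.45% and 0.771% of all genes. The list median was -0.53, beside -0.076 for all genes, and 26 of the 27 values were below 0. Leaving out knockout replicate 3 gave 17 falls and 0 rises, with a median of -0.48, beside 5.26% and 3.27% of all genes. No member was called without wild-type replicate 1, 2 or 3, and 8 and 6 fell without knockout replicate 1 or 2. Median-of-ratios scaling left 12 that fell, with a median of -0.46.

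Among the enzymes of the upper pathway, Acat2, which joins acetyl-CoA units, was at 16.4, 16.4 and 17.3 TPM in wild type and at 10.2, 9.36 and 9.24 TPM in the knockout. Acat2 fell by 0.74 ± 0.09 (limma adjusted p = 0.011, -0.72 without replicate 3). Fdps, the farnesyl diphosphate synthase, was at 132, 133 and 126 TPM against 75.4, 67.7 and 82.8 TPM and fell by 0.79 ± 0.08 (limma adjusted p = 0.011, -0.86 without replicate 3). Cyp51, the lanosterol demethylase of the lower pathway, was at 23.6, 22.7 and 24.1 TPM against 12.8, 12.6 and 11.6 TPM and fell by 0.88 ± 0.08 (limma adjusted p = 0.0097, -0.84 without replicate 3). The 3 genes had no overlap between groups, and knockout replicate 3 was not the lowest library for Fdps. The further members named here were chosen after their values were seen. The mevalonate diphosphate decarboxylase Mvd changed by -0.92 ± 0.12, from a mean of 17.7 to 8.90 TPM. The lanosterol synthase Lss changed by -0.80 ± 0.10, from 13.5 to 7.28 TPM. Sqle, the squalene epoxidase, fell by 0.55 ± 0.07, and Sc5d and Dhcr7 of the last steps changed by -0.56 and -0.53. For these 5 genes limma gave adjusted p-values between 0.017 and 0.046, and values from -1.0 (Mvd) to -0.45 (Dhcr7) without replicate 3.

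Of the regulators on the list Insig1 and Srebf2 fell. Insig1, which retains the SREBP complex in the endoplasmic reticulum and is itself a target, was at 60.7, 61.7 and 61.2 TPM in wild type and at 39.8, 40.9 and 30.4 TPM in the knockout and fell by 0.72 ± 0.12 (limma adjusted p = 0.034, -0.59 without replicate 3). Srebf2 was at 59.9, 58.9 and 58.4 TPM against 43.7, 46.6 and 39.9 TPM and fell by 0.44 ± 0.07 (limma adjusted p = 0.039, -0.38 without replicate 3). In both genes the highest knockout library stayed below the lowest wild-type library. Other regulators did not pass with or without knockout replicate 3: Srebf1, the related factor that acts mainly on fatty acid genes, differed by -0.42 ± 0.11 (limma adjusted p = 0.1), Scap, which escorts the SREBP factors to the Golgi, by -0.12 ± 0.075 (0.39) and the ubiquitin ligase Mylip by 0.11 ± 0.11 (0.61). Members called only without knockout replicate 3 included Hmgcs1, an early synthase of the pathway, at -0.39, Stard4 at -0.48, Mvk at -0.55 and Nsdhl at -0.39 (limma adjusted p of 0.012 to 0.046). Hsd17b7 and Idi1 were among the 10 members not called in either case.

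Since these genes moved together, the 250 bases before the RefSeq transcription start were searched on both strands (RefSeq, build GRCm38.p6; 8488 of the tested genes had a promoter entry). The CCAAT box, searched as CCAAT, which the factor NF-Y binds beside SREBP sites in sterol genes, was in at least one promoter of 18 of the 20 sterol list members with an entry (90%) and of 41.2% of the tested genes. Among the called members it was in 7 of 8. The sterol regulatory element was searched as TCACNCCAC, which occurred in 1.23% of tested genes, in Hmgcs1 of the list and in 0 of the 8 called members with an entry. These matches describe letters in a window. Shown, so that the box can be seen in genes that fell, are 5 called members that hold it: the enzymes Mvd, Lss and Cyp51 in pathway order and the regulators Insig1 and Srebf2. Each runs 5′ to 3′ on the gene's strand up to the base before the start, with the CCAAT box, or ATTGG where it lies on the other strand, in capitals. Mvd lies at chr8:122443423-122443672 (minus strand), Lss at chr10:76531355-76531604 (plus), Cyp51 at chr5:4104698-4104947 (minus), Insig1 at chr5:28071162-28071411 (plus) and Srebf2 at chr15:82147019-82147268 (plus).
Mvd: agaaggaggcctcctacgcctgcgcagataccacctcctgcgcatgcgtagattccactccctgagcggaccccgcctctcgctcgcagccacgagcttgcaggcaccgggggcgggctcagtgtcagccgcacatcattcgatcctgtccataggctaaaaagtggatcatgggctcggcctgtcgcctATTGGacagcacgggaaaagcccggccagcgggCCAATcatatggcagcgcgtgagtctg
Lss: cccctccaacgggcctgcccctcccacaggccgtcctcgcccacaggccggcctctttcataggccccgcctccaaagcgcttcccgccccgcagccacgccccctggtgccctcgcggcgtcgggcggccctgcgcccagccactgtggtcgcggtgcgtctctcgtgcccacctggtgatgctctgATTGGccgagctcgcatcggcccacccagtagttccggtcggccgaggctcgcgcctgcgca
Cyp51: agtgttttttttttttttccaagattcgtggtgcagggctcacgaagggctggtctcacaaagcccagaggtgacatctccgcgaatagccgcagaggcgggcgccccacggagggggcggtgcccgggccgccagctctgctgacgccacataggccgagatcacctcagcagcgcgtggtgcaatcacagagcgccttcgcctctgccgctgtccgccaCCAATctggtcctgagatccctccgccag
Insig1: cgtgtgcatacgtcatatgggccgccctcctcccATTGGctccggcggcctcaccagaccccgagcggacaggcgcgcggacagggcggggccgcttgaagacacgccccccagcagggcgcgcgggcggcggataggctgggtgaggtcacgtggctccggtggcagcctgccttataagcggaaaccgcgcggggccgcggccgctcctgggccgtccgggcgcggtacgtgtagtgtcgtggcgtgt
Srebf2: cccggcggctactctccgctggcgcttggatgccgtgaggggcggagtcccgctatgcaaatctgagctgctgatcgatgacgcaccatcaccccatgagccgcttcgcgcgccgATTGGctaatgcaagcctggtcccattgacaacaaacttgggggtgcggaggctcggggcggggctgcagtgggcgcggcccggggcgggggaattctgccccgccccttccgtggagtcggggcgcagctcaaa
Mvd holds the box in both orientations, close to its start. In Lss, Cyp51, Insig1 and Srebf2 the first base of the box has the position -62, -29, -216 and -135, counted from the start.

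Of the 5 desaturases of the fatty acid list that were measured, 4 fell as well. Scd2, a stearoyl-CoA desaturase that makes monounsaturated fatty acids, was at 141, 141 and 142 TPM in wild type and at 67.3, 66.9 and 46.0 TPM in the knockout. Scd2 fell by 1.24 ± 0.14 (limma adjusted p = 0.012), and by 1.06 without knockout replicate 3, its lowest library. Its paralog Scd1, which can share reads with it, was at 9.49, 9.26 and 9.11 TPM against 3.70, 4.21 and 3.41 TPM and fell by 1.11 ± 0.11 (limma adjusted p = 0.01, -1.06 without replicate 3). Fads2, the delta-6 desaturase of polyunsaturated fatty acids, was at 38.4, 36.2 and 36.1 TPM against 16.8, 15.5 and 14.6 TPM and fell by 1.19 ± 0.08 (limma adjusted p = 0.0046, -1.15 without replicate 3). In all 3 genes the highest knockout library was below the lowest wild-type library. Fads1, the delta-5 desaturase, was also called lower, at -0.37 ± 0.06 (limma adjusted p = 0.038, -0.34 without replicate 3). The remaining desaturase, Fads3, was near the filter, with means of 2.0 and 1.88 TPM and overlapping groups, and differed by -0.058 ± 0.12 (limma adjusted p = 0.81). Fads1 and Fads3 were named after their values were seen. Of 17 members of the fatty acid synthesis and desaturation list 4 fell and 0 rose, with a median of -0.28, beside 1.45% and 0.771% of all genes. In the fit that left out knockout replicate 3, 5 fell and the acyl-CoA synthetase Acsl1 rose, by 0.69, with a median of -0.27. Over all genes 5.26% fell and 3.27% rose in that fit. Fads2 stayed called without wild-type replicate 3, and no member did without wild-type replicate 1 or 2. Fasn, the fatty acid synthase, was not called.

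Genes of cholesterol efflux and lipoprotein handling went both ways. Of 28 members 2 rose and 1 fell, with a median of -0.01, beside 0.771% and 1.45% of all genes. Beside Apoe the phospholipid transfer protein Pltp rose by 0.58 ± 0.08, from 339, 331 and 336 TPM to 460.5, 488 and 565 TPM (limma adjusted p = 0.021, 0.50 without replicate 3). The endothelial lipase Lipg fell by 0.64 ± 0.09 from a mean of 23 to 14.4 TPM (limma adjusted p = 0.025, -0.58 without replicate 3). This became 5 rises and 6 falls without knockout replicate 3, where 3.27% of all genes rose and 5.26% fell. The members added included the lipoprotein lipase Lpl, up by 0.40, the fatty acid receptor Cd36, up by 0.77, and the cholesterol exporter Abcg1, at -0.27, all named after their values were seen. No member was called without any 1 wild-type library, and 3 and 1 were without knockout replicate 1 or 2. Of 17 prostaglandin and leukotriene enzymes Hpgd and Alox5 fell and 0 rose, with a median of -0.04, and 1 rose and 2 fell without knockout replicate 3. Alox5, the 5-lipoxygenase, was near the filter, at 3.64, 2.22 and 2.29 TPM against 0.551, 0.835 and 0.724 TPM, and fell by 1.11 ± 0.18 (limma adjusted p = 0.037, -1.12 without replicate 3).

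**Figure D4:**
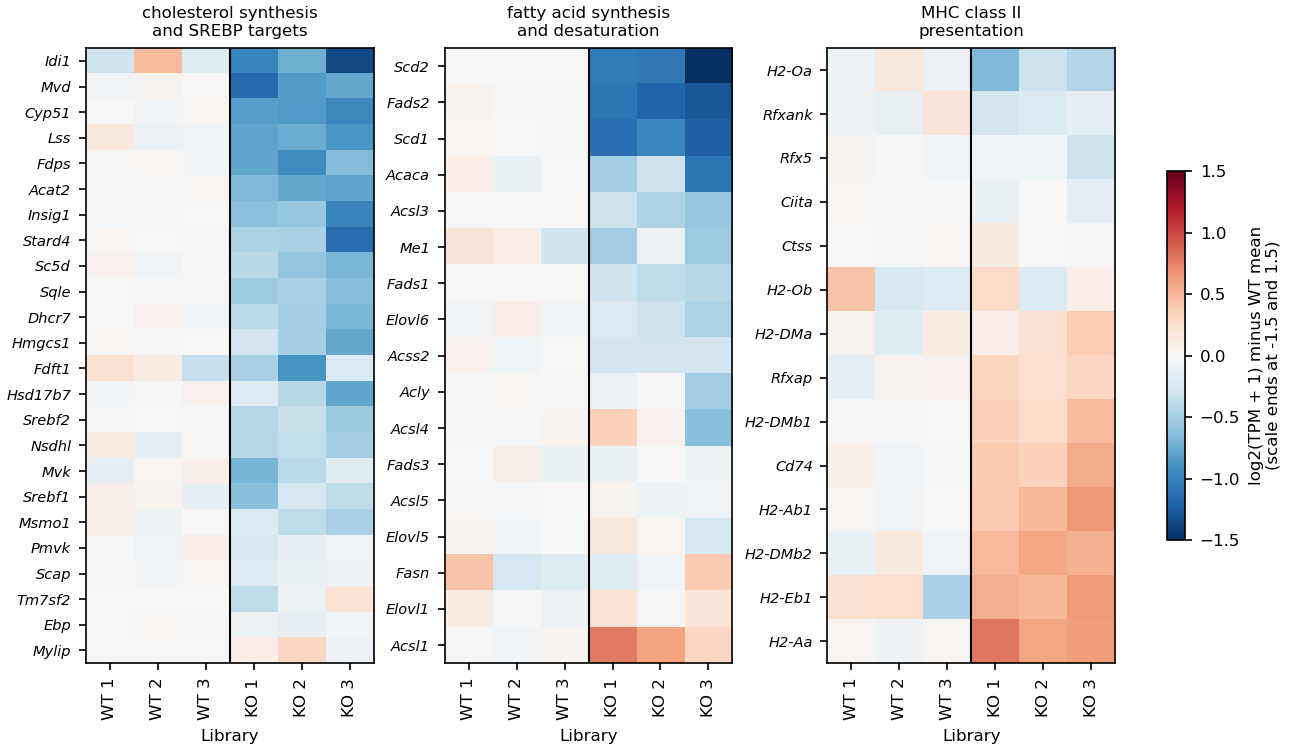
Difference of log2(TPM + 1) from the wild-type mean in each library for measured members of 3 lists, with colours from blue (lower) to red (higher) that end at -1.5 and 1.5. Most sterol genes and the desaturases are blue in all 3 knockout libraries, and H2-Aa, H2-Ab1, Cd74 and H2-DMb1 are red in them.

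Type I interferon-stimulated transcripts were lower in the knockout. These genes are induced through the factor ISGF3, which contains Stat2 and Irf9, and are also raised in part by interferon-gamma. Of 65 measured members 8 fell and 0 rose, beside 1.45% and 0.771% of all genes. Values were below 0 in 58 members, with a median of -0.29 beside -0.076 for all genes. At an unadjusted p under 0.05, 38 were lower and 1 higher, where 14.3% of all genes tested were lower and 6.5% higher (20.8% in either direction). Leaving out knockout replicate 3 gave 20 falls and 0 rises, with a median of -0.20, beside 5.26% and 3.27% of all genes. The count was 3 without knockout replicate 1 or 2, 3 after median-of-ratios scaling and 0 without any 1 wild-type library.

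Ifitm3, which blocks viral entry from endosomes, was at 3781, 3682 and 3740 TPM in wild type and at 2874, 2574 and 2984 TPM in the knockout, a fall of 0.41 ± 0.07 (limma adjusted p = 0.033, -0.46 without replicate 3). Ifitm6, a family member that can share reads with its paralogs, was at 12.6, 13.4 and 13.7 TPM against 5.87, 6.61 and 6.77 TPM and fell by 0.94 ± 0.10 (limma adjusted p = 0.011, -0.97 without replicate 3). Ms4a4c, a membrane protein of a family of close paralogs, was at 189, 202 and 207 TPM against 126, 132 and 103 TPM and fell by 0.73 ± 0.10 (limma adjusted p = 0.02, -0.62 without replicate 3). In each the groups were apart, and knockout replicate 3 was the highest of its group for Ifitm3 and Ifitm6 and the lowest for Ms4a4c. The glycoprotein Lgals3bp fell by 0.35 ± 0.05 from a mean of 932 to 732 TPM (limma adjusted p = 0.022, -0.38 without replicate 3). Ifitm3 and the regulators that follow were named after their values were seen. Irf7, the transcription factor that amplifies the type I response, was at 388, 402 and 405 TPM against 305, 285 and 331 TPM and fell by 0.38 ± 0.07 (limma adjusted p = 0.043, -0.44 without replicate 3). Stat2, a subunit of ISGF3, was at 126.5, 129.6 and 133 TPM against 102, 103 and 88.4 TPM and fell by 0.41 ± 0.07 (limma adjusted p = 0.045, -0.34 without replicate 3). Usp18, a protease that dampens interferon receptor signalling, fell by 0.41 ± 0.07 (limma adjusted p = 0.038, -0.40 without replicate 3). Cmpk2, a mitochondrial nucleotide kinase, fell by 0.46 ± 0.09 (limma adjusted p = 0.048, -0.40 without replicate 3). The interferon-stimulated response element, searched on both strands of the same 250 bases, was in 19 of 50 list members with an entry (38%), in 3.52% of tested genes and, of the 7 called members with an entry, in Stat2.

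The interferon-gamma response list was balanced. Of 48 members of the interferon-gamma response list Upp1 rose and the protease inhibitor Serpina3f fell, with a median of 0.00. Over all genes 0.771% rose and 1.45% fell, with a median of -0.076, so these few calls are no result about the list. Without knockout replicate 3 the shares over all genes were 3.27% and 5.26%. Serpina3f, one of a cluster of near-identical genes, was at 202, 202 and 205 TPM against 161, 142 and 140.0 TPM and fell by 0.46 ± 0.07 (limma adjusted p = 0.025, -0.42 without replicate 3). Without that knockout library, replicate 3, 4 rose and 1 fell, the former including the T-cell attractant Cxcl9 and Cd40, both named after their values were seen. Cxcl9 was at 111, 91.6 and 108 TPM in wild type and at 240, 160 and 159 TPM in the knockout. Its groups were apart, and its difference of 0.82 ± 0.17 passed without knockout replicate 3 (limma adjusted p = 0.033) and not with it (0.063). Of 18 guanylate-binding proteins and immunity-related GTPases, which attack the vacuoles of intracellular pathogens, Gbp11 fell and 0 rose, with a median of -0.23. Over all genes 1.45% fell, with a median of -0.076. Leaving out knockout replicate 3 gave 3 falls, Gbp7, Gbp9 and Gbp11, with a median of -0.11, beside 5.26% and -0.032 for all genes. Gbp11 was at 14.9, 13.5 and 15.4 TPM against 6.24, 6.27 and 5.98 TPM, a fall of 1.12 ± 0.09 (limma adjusted p = 0.0084, -1.10 without replicate 3), and as a member of a cluster of paralogs its value is uncertain. Gbp2, at 3577 to 3788 TPM in wild type, differed by 0.05 ± 0.08. Of these lists, Upp1 alone was called without a wild-type library, replicate 3.

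MHC class II transcripts were higher. Class II molecules present peptides from endosomes to helper T cells, and Cd74, the invariant chain, and H2-DM guide their loading. Of 14 measured members 4 rose and 0 fell, with a median of 0.26, beside 0.771% and 1.45% of all genes. The same counts were found without knockout replicate 3, with a median of 0.22, beside 3.27% and 5.26% of all genes. H2-Aa, a class II alpha chain, was at 198, 182.5 and 199 TPM in wild type and at 335, 291 and 298 TPM in the knockout, a rise of 0.67 ± 0.07 (limma adjusted p = 0.011, 0.69 without replicate 3). H2-Ab1, its beta chain, was at 294.5, 275 and 287 TPM against 375.5, 404 and 447 TPM and rose by 0.51 ± 0.07 (limma adjusted p = 0.024, 0.45 without replicate 3). Cd74 was at 901, 833 and 841 TPM against 1127, 1092 and 1265 TPM and rose by 0.43 ± 0.07 (limma adjusted p = 0.036, 0.37 without replicate 3). All knockout libraries exceeded all wild-type libraries for these genes. H2-DMb1, named after its value was seen, rose by 0.37 ± 0.06 (limma adjusted p = 0.038, 0.32 without replicate 3). Ciita, the master regulator of class II genes, was at 35.6, 34.1 and 34.2 TPM against 32.2, 34.8 and 31.4 TPM, a difference of -0.08 ± 0.07 with overlapping groups. The count of rises was 2 after median-of-ratios scaling, 2 and 1 without knockout replicate 1 or 2, and 0 without any 1 wild-type library.

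Markers of conventional dendritic cells, which also carry class II, were higher in sum. Summed over the 14 markers, the wild-type libraries held 61.4 to 68.7 TPM and the knockout libraries 83.1 to 113 TPM. Of the 6 markers kept, Itgax rose, and most of the gain in the sum was that of Clec9a, which was not called. Clec9a, a receptor for dead cells on cross-presenting dendritic cells, was at 25.3, 27.7 and 27.1 TPM against 73.4, 53.5 and 38.7 TPM, a difference of 0.98 ± 0.21 (limma adjusted p = 0.067), and was called without knockout replicate 3 (limma adjusted p = 0.0089). The defining markers Flt3, Zbtb46 and Cd209a were at no more than 0.0638, 0.253 and 0.0382 TPM in any of the 6 libraries, Xcr1 at no more than 2.83 TPM, and Batf3, the other abundant member, had means of 25.3 and 26.1 TPM and differed by 0.04 ± 0.12. In bulk samples fewer or more cells of a type and a different amount of RNA per cell cannot be told apart, and the part of such cells in the class II values was not tested.

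MHC class I transcripts of the H2-Q family were lower. Of 23 class I genes H2-Q4, H2-Q5 and H2-Q6 fell and 0 rose, with a median of -0.15, beside 1.45% and 0.771% of all genes. H2-Q4 was at 223, 213 and 215 TPM against 159.9, 167 and 177 TPM and fell by 0.37 ± 0.06 (limma adjusted p = 0.032, -0.41 without replicate 3). H2-Q5 and H2-Q6 changed by -0.52 ± 0.08 and -0.60 ± 0.11 (limma adjusted p = 0.036 and 0.045), and by -0.51 and -0.58 without replicate 3. These genes are near-identical copies, so reads can be split among them and single values are uncertain. The falls numbered 5 without knockout replicate 3, where 5.26% of all genes fell. In this list 0 were called without any 1 of the other 5 libraries or after median-of-ratios scaling.

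Chemokines, cytokines and their receptors were called in both directions. The counts stand beside the 2.22% of all genes that were called, or 8.53% without knockout replicate 3. Of 16 chemokines Cxcl16, a membrane-bound chemokine that also acts as a scavenger receptor, rose by 0.40 ± 0.06 to 279 ± 16 TPM (SD, n = 3, limma adjusted p = 0.023, 0.37 without replicate 3) and 0 fell, with a median of 0.21. Leaving out knockout replicate 3 gave 3 rises and 1 fall. Of 21 cytokines Pdgfb, a growth factor for mesenchymal cells, and Tnf rose, and Gdf15 and Spp1 fell, with 3 rises and 3 falls without knockout replicate 3. Pdgfb was at 33.1, 36.7 and 37.4 TPM against 57.4, 62.3 and 61.8 TPM and rose by 0.75 ± 0.08 (limma adjusted p = 0.011, 0.73 without replicate 3). Tnf was at 68.4, 63.8 and 64.3 TPM against 87.3, 79.3 and 85.9 TPM and rose by 0.36 ± 0.07 (limma adjusted p = 0.048, 0.34 without replicate 3). For both genes the groups were apart, by a smaller margin for Tnf. Of 14 chemokine receptors Cxcr4 was called, and without knockout replicate 3 Ccr1 also, which rose by 0.52 (limma adjusted p = 0.049). Of 36 members of the Toll-like receptor and NF-kB list Cd14, the co-receptor for lipopolysaccharide, fell and 0 rose, with a median of -0.07, and 1 rose and 3 fell without knockout replicate 3. Cd14 was at 160, 151 and 149 TPM in wild type and at 85.5, 81.9 and 88.1 TPM in the knockout, a fall of 0.84 ± 0.06 (limma adjusted p = 0.0046), and was as large without knockout replicate 3 (-0.86). Tlr7, named after its values were seen, was at 68.6, 66.9 and 71.1 TPM against 43.7, 35.2 and 21.0 TPM and was called only without knockout replicate 3, at -0.79 (limma adjusted p = 0.011, against 0.072 with it). Cxcr4 and Cd14 stayed called without wild-type replicate 3, and no other member of these lists did without a wild-type library.

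Of 26 macrophage identity genes Gas6 and Cd33 fell and 0 rose, beside 1.45% and 0.771% of all genes, with a median of -0.08 that was 0.00 after median-of-ratios scaling. Gas6, the ligand of the efferocytosis receptors Axl and Mertk, was at 112, 115 and 106 TPM against 62.3, 68.6 and 73.7 TPM and fell by 0.70 ± 0.08 (limma adjusted p = 0.011, -0.75 without replicate 3). Cd33, an inhibitory lectin, fell by 0.96 ± 0.16 from a mean of 10.2 to 4.81 TPM (limma adjusted p = 0.037, -1.01 without replicate 3). In the fit without knockout replicate 3, 4 identity genes rose and 6 fell, beside 3.27% and 5.26% of all genes. Of 20 Fc receptor and complement genes Itgax and Itgb2 rose and Fcgr2b, the inhibitory IgG receptor, fell by 0.49 ± 0.07 (limma adjusted p = 0.026, -0.45 without replicate 3), with 2 rises and 2 falls when that library was left out. Itgb2, the beta subunit that pairs with Itgax, was at 521, 506 and 517 TPM against 645, 657.5 and 643 TPM and rose by 0.33 ± 0.05 (limma adjusted p = 0.019, 0.34 without replicate 3). Its knockout libraries lay close together and above all wild-type libraries. Of 17 integrin and adhesion genes these 2 rose and Itgb7 fell by 0.36 ± 0.06 (limma adjusted p = 0.042, -0.39 without replicate 3). Without knockout replicate 3 this list had 4 rises and 1 fall, the integrin alpha subunits Itgal (0.53) and Itga5 (0.27) being added, both named after their values were seen. None of the genes in these 3 lists was called without wild-type replicate 1, 2 or 3.

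Transcripts of the respiratory chain showed 0 calls by limma with 6 libraries in each of 4 lists. Over all genes 2.22% were called, so 0 calls in lists of this size are no result about them. For complex IV, subunits and assembly factors together, 43 genes were measured and their median was 0.01. The 35 complex I subunits had a median of 0.02 and the 29 subunits of the other complexes (II, III and V) one of 0.04. The 13 mRNAs encoded in mitochondria had a median of 0.23, beside -0.076 for all genes, and 0.25 without knockout replicate 3. Among these mRNAs 11 values were above 0 and 2 below. In 6 of them every knockout library lay above every wild-type library, which held for 9.52% of all genes. At an unadjusted p under 0.05 there were 2 higher and 1 lower in the complex IV list, 2 and 1 in the complex I list, 0 and 0 in that of the other complexes, and 3 and 0 among the mitochondrial mRNAs, beside 6.5% higher and 14.3% lower of all genes. Of the catalytic complex IV subunits, mt-Co1 was at 8865, 8916 and 8953 TPM in wild type and at 10407, 8859 and 8509 TPM in the knockout, a difference of 0.05 ± 0.08 with overlapping groups. For mt-Co2 the libraries were at 7791, 7918 and 8126 against 9634, 8087 and 8749 TPM, a difference of 0.15 ± 0.07. Ndufa12 and Ndufb8 of complex I differed by -0.08 ± 0.10 and 0.06 ± 0.08, and Atp5b and Atp5g3 of the ATP synthase by 0.03 ± 0.06 and 0.05 ± 0.05. These intervals do not show equality. When knockout replicate 3 was left out, Cox7c, a small complex IV subunit, rose by 0.16 (limma adjusted p = 0.047), the complex I subunits Ndufa2 and Ndufs8 fell (-0.21 and -0.33, named after their values were seen) and 0 of the other 2 lists were called. In that fit 8.53% of all genes were called.

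Of 78 mitochondrial ribosomal proteins Mrpl52 rose, by 0.51 ± 0.07 (limma adjusted p = 0.018, 0.45 without replicate 3). Mrps6 fell, by 0.47 ± 0.08 (limma adjusted p = 0.042, -0.47 without replicate 3). The list median was 0.01, and 4 rose and 2 fell without knockout replicate 3. Over all genes 0.771% rose and 1.45% fell, or 3.27% and 5.26% without that library, so these few calls are no result about the list. Of 81 cytosolic ribosomal proteins Rpl12 rose, by 0.47 ± 0.09 (limma adjusted p = 0.045, 0.41 without replicate 3, again the 1 call), and 76 values were above 0, with a median of 0.12 that was 0.05 without knockout replicate 3. The median transcript length of this list is 628 bases, and short transcripts were relatively high in that library, where the list summed to 90758 TPM against 74468 to 76092 TPM in wild type. The lowest knockout sum was 76420 TPM. In 39 members every knockout library lay above every wild-type library and in 1 below, which held for 9.52% and 22% of all genes. At an unadjusted limma p under 0.05, 21 were higher and 1 lower, and 19 and 1 without knockout replicate 3. With the trend over transcript length removed the list median was 0.10, with 1 rise and 0 falls. The cause of the ribosomal values was not tested.

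Of 23 glycolytic genes 16 had values above 0, and the median was 0.18. Among them 2 rose and 1 fell, beside 0.771% and 1.45% of all genes. Without knockout replicate 3, 10 rose and 2 fell, with a median of 0.19, beside 3.27% and 5.26% of all genes. Slc16a3, the exporter of lactate, was at 169, 172 and 172 TPM in wild type and at 236, 266 and 259.5 TPM in the knockout, a rise of 0.56 ± 0.06 (limma adjusted p = 0.011, 0.55 without replicate 3). Pfkl, a phosphofructokinase, was at 64.2, 66.4 and 63.9 TPM against 80.9, 87.7 and 95.7 TPM and rose by 0.43 ± 0.08 (limma adjusted p = 0.042, 0.37 without replicate 3). Slc2a6, a lysosomal hexose transporter, was at 163, 150.2 and 156 TPM against 98.8, 103 and 113 TPM and fell by 0.57 ± 0.07 (limma adjusted p = 0.014, -0.63 without replicate 3). The groups were apart in all of these. The rises added without knockout replicate 3 ran along the pathway, from the glucose transporter Slc2a1 (0.31) and the hexokinase Hk2 (0.37) through Aldoa (0.25), Pgk1 (0.24) and Eno1 (0.20) to Ldha (0.18), with limma adjusted p of 0.017 to 0.032, and were named after their values were seen. No member was called without any 1 wild-type library, and 3 and 1 were without knockout replicate 1 or 2.

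Of 18 hypoxia response genes 0 were called by limma with 6 libraries. At an unadjusted p under 0.05, 3 were higher and 1 lower, beside 6.5% higher and 14.3% lower of all genes. Median-of-ratios scaling and removal of the length trend gave 2 rises each and 0 falls. Leaving out knockout replicate 3 gave 3 rises: Bnip3, a mitophagy receptor, by 0.69, the oxygen sensor Egln1 by 0.36 and the collagen hydroxylase P4ha1 by 0.27. Hif1a, the oxygen-regulated factor itself, was at 95.6, 102 and 104 TPM in wild type and at 125, 113.5 and 70.0 TPM in the knockout, so that its direction depended on knockout replicate 3: the difference was -0.01 ± 0.20 with that library and 0.25 without it (limma adjusted p = 0.067). Of 23 genes of the tricarboxylic acid cycle the cytosolic enzyme Idh1 fell, by 0.70 ± 0.11 (limma adjusted p = 0.033, -0.58 without replicate 3), and 0 rose, counts that were the same without knockout replicate 3. Of 26 genes of nucleotide salvage and pyrimidine breakdown Upp1 and the mitochondrial carrier Ucp2 rose and Cmpk2 fell. Ucp2 rose by 0.39 ± 0.07 (limma adjusted p = 0.044, 0.36 without replicate 3), and the counts were 3 and 2 without knockout replicate 3. Calls in these lists stand beside 0.771% higher and 1.45% lower of all genes, or 3.27% and 5.26% without that library.

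Immediate early genes, the transcription factors that growth and stress signals switch on within minutes, had values above 0 in 14 of 20 members. Of these members 2 rose and 0 fell, with a median of 0.16, and 5 rose without knockout replicate 3. Fos, a subunit of AP-1, was at 27.3, 29.5 and 27.7 TPM in wild type and at 47.3, 55.8 and 49.6 TPM in the knockout, a rise of 0.83 ± 0.08 (limma adjusted p = 0.011, 0.84 without replicate 3). Myc, which drives growth and ribosome production, was at 22.3, 21.7 and 21.3 TPM against 42.4, 37.6 and 37.7 TPM and rose by 0.82 ± 0.08 (limma adjusted p = 0.0097, 0.85 without replicate 3). All knockout libraries of both genes lay above all wild-type libraries. In the list of TGF-beta, BMP and Id genes Id1 and Tmeff1 rose, of 22 members, and 0 fell. Without knockout replicate 3 there were 4 rises, the receptor Tgfbr1 (0.32, against 0.0019 with that library) and the secreted protein Tgfbi (0.25) being added, both named after their values were seen. Of 31 members of the integrated stress and unfolded protein response Slc3a2, the heavy chain of amino acid exchangers, rose by 0.29 ± 0.06, with an adjusted p just inside the threshold (0.26 without replicate 3), and Gdf15, Sesn2 and Phgdh fell. Sesn2, a stress-induced inhibitor of mTORC1, changed by -0.56 ± 0.10 and Phgdh, the first enzyme of serine synthesis, by -0.50 ± 0.09 (limma adjusted p = 0.039 and 0.046), and by -0.55 and -0.56 without replicate 3. There were 4 rises and 6 falls without knockout replicate 3, among the latter Atf4, the factor that governs the integrated stress response, at -0.36. No member of these lists was called without any 1 wild-type library. Their counts stand beside 0.771% higher and 1.45% lower of all genes, or 3.27% and 5.26% without knockout replicate 3.

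Of 41 lysosomal genes Ctse, the V-ATPase subunit Atp6v0a1 (-0.41 ± 0.07, limma adjusted p = 0.045, -0.35 without replicate 3) and the glucuronidase Gusb (-0.26 ± 0.05, limma adjusted p = 0.045, -0.25 without replicate 3) fell and 0 rose, with a median of -0.14. Without knockout replicate 3, 10 fell, with a median of -0.14. Of 18 iron genes the endosomal iron reductase Steap3 fell and 0 rose. Steap3 was at 59.6, 59.6 and 60.9 TPM in wild type and at 37.2, 39.4 and 37.9 TPM in the knockout, a fall of 0.64 ± 0.06 (limma adjusted p = 0.0097, -0.64 without replicate 3). It lies on chromosome 1 (120190757 to 120272705, minus strand), as do Cxcr4 and Ctse. Of 653 genes tested on that chromosome 3 rose and 14 fell (2.6% called, beside 2.22% of all genes). The part of position in these falls was not tested. Without knockout replicate 3, 4 iron genes fell and 1 rose. The falls added were those of the iron exporter Slc40a1 (-0.56), the ferritin heavy chain Fth1 (-0.21) and the ferritin receptor Ncoa4 (-0.30), and transferrin, Trf, rose by 0.26, all named after their values were seen. Of 27 NRF2 and antioxidant genes Txn1, thioredoxin, rose by 0.29 ± 0.05 (limma adjusted p = 0.038, 0.26 without replicate 3) and 0 fell. Without knockout replicate 3, 3 rose and 3 fell. Prdx5, a peroxiredoxin, and Gclc, of glutathione synthesis, rose by 0.36 and 0.38, and Keap1, the inhibitor of NRF2, G6pdx and Sqstm1 changed by -0.30, -0.34 and -0.20, all named after their values were seen. The lysosomal, iron and antioxidant counts stand beside 0.771% higher and 1.45% lower of all genes. Without knockout replicate 3 these shares were 3.27% and 5.26%.

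Of 40 cell cycle genes the replication helicase subunit Mcm2 rose, by 0.34 ± 0.06 (limma adjusted p = 0.044, 0.38 without replicate 3), and the mitotic genes Ccnb2, Cdc20 and Plk1 and the microtubule regulator Stmn1 fell. Ccnb2, cyclin B2, was at 63.7, 61.9 and 60.2 TPM against 44.8, 48.2 and 39.7 TPM and fell by 0.48 ± 0.08 (limma adjusted p = 0.043, -0.41 without replicate 3). Cdc20, which activates the anaphase-promoting complex, fell by 0.41 ± 0.07 (limma adjusted p = 0.045, -0.39 without replicate 3). The counts were 8 rises and 9 falls without knockout replicate 3, the former including Mcm3, Mcm4, Mcm6 and Pcna of replication and the latter Ccnb1, Aurkb and Mki67, named after their values were seen. No member was called without any 1 of the other 5 libraries. Of 45 genes of the actin cytoskeleton Actb and Actg1, the cytoplasmic actins, rose and 0 fell, with a median of 0.07. Actb was at 4774, 4713 and 4711 TPM in wild type and at 6390, 6271 and 5618 TPM in the knockout, a rise of 0.36 ± 0.06 (limma adjusted p = 0.041, 0.42 without replicate 3). Actg1 rose by 0.41 ± 0.05 from a mean of 1623 to 2163 TPM (limma adjusted p = 0.013, 0.44 without replicate 3). Both actins are near-identical in their coding sequence, so reads can be split between them, and 6 members rose without knockout replicate 3. The cell cycle and actin counts stand beside 0.771% higher and 1.45% lower of all genes. Without knockout replicate 3 these shares were 3.27% and 5.26%.

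**Figure D5:**
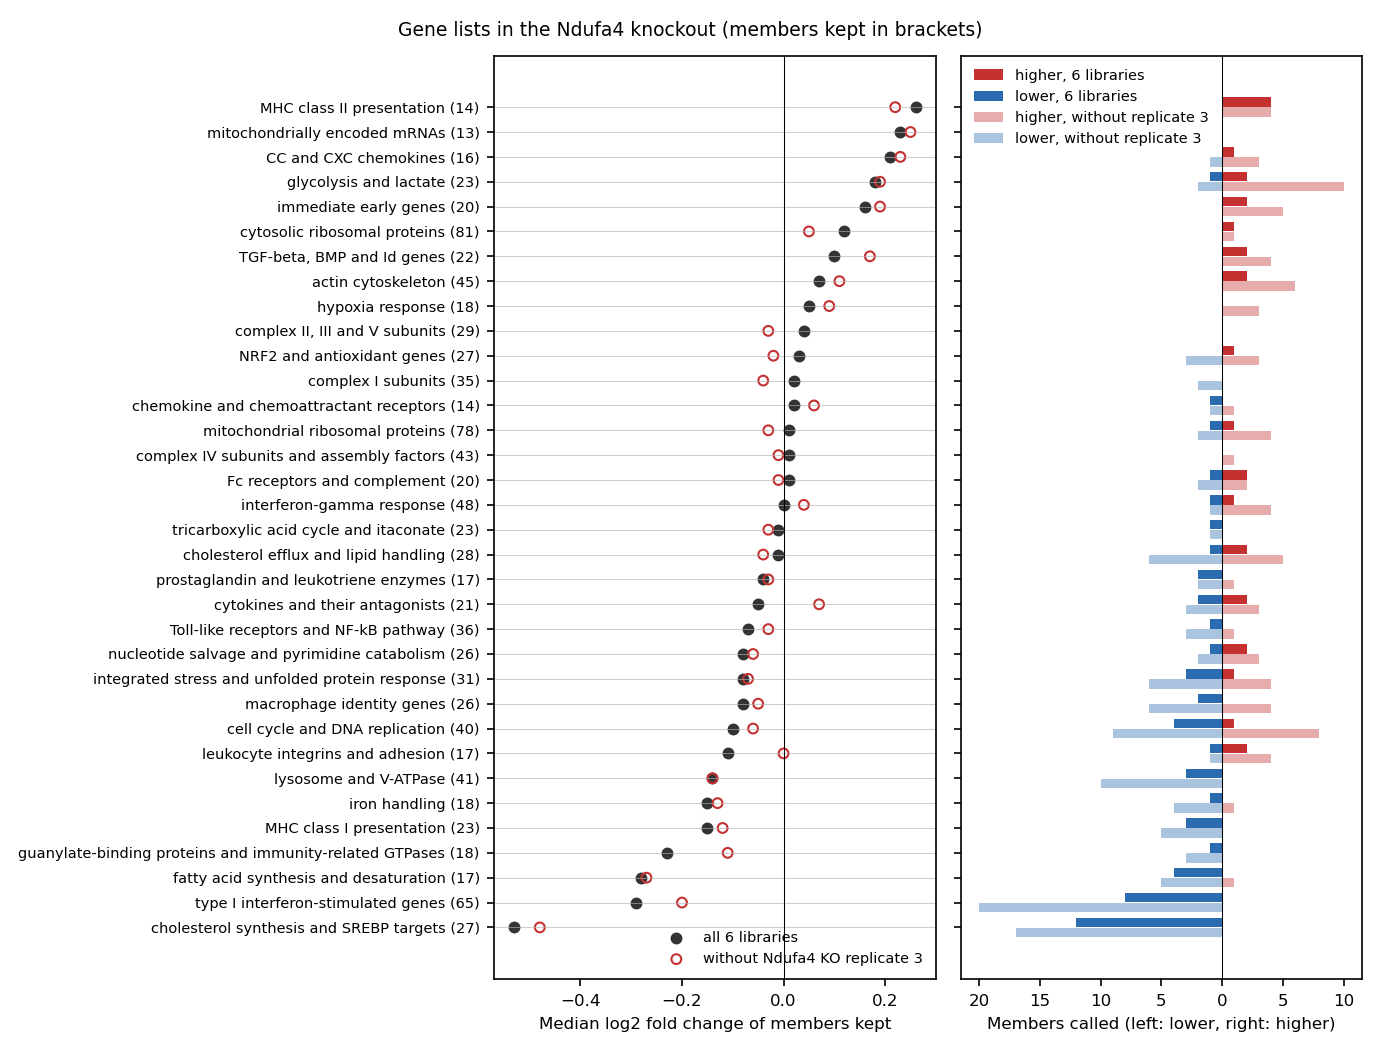
Left, median log2 fold change of the measured members of each list with all 6 libraries (filled) and without knockout replicate 3 (open). Right, members called lower (blue, to the left) and higher (red, to the right), in full colour with 6 libraries and pale without knockout replicate 3, with 12 and 17 sterol genes lower at the bottom.

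Summed markers of other cell types differed widely in level from type to type. Ighm, the immunoglobulin mu chain, was at 43.3, 44.2 and 45.2 TPM in wild type and at 31.2, 26.9 and 28.2 TPM in the knockout and fell by 0.61 ± 0.08 (limma adjusted p = 0.016, -0.60 without replicate 3), while the B cell marker Cd79a was at no more than 0.303 TPM and Iglc2 was listed at 0. Summed B cell markers came to 46.0 to 48.4 TPM against 30.5 to 33.2 TPM. Summed T and NK cell markers were at 4.30 to 4.51 against 3.44 to 3.64 TPM, with Trac, Nkg7 and Gzma listed at 0. Neutrophil markers summed to 14.3 to 95.6 against 13.3 to 53.2 TPM. Their main members S100a8 and S100a9 had their lowest values in knockout replicate 3 and wild-type replicate 1, so they varied within both groups. Erythroid and megakaryocyte markers summed to 114 to 365 against 89.0 to 158 TPM and the globin Hba-a2 was at 118 TPM in wild-type replicate 2 against 5.42 to 35.4 TPM in the other 5 libraries. Stromal and endothelial markers summed to 62.4 to 109 against 54.1 to 226 TPM, with the highest value in knockout replicate 3 and the collagen Col3a1 at 116 TPM there. Plasmacytoid dendritic cell markers summed to 1685 to 1734 against 1217 to 1548 TPM, nearly all of it Bst2, which is also an interferon-stimulated gene of macrophages, and Siglech was at no more than 0.263 TPM. Osteoclast markers summed to 33.6 to 35.0 against 30.3 to 39.4 TPM, and those of mast cells, basophils and eosinophils to 0.989 to 2.52 against 0.838 to 2.67 TPM. Of these marker genes other than Ighm and Itgax, 0 were called by limma with 6 libraries. Without knockout replicate 3, Clec9a and the osteoclast marker Ocstamp (0.48) were called higher and Bst2 (-0.44) and the platelet factor Pf4 (-0.37) lower, and the part of such cells in the results above was not tested.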

How the data were processed

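Polyadenylated RNA of 3 wild-type and 3 Ndufa4 knockout libraries was compared. TPM per gene were used as the authors deposited them in 1 table. The tools kallisto, DESeq2 and edgeR and the builds mm10 and GRCm39 are named per the submitters' processing notes, without versions or roles. How transcripts were summed to genes is not given in the sources used here, and read depth is unknown. Because TPM are shares of a total corrected for length, an abundant gain lowers other values, and uneven coverage of long transcripts moves them.

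The deposited TPM were transformed to log2(TPM + 1). Genes that reached 1 TPM in 3 or more libraries were fitted with limma 3.58.1 in R 4.3.3 (1 mean per genotype, intensity trend, two-sided tests, Benjamini-Hochberg adjustment over the 10897 genes). The procedure was also run on simulated data with the same spread in both groups and no outlying library. That run cannot show how it behaves with the unequal spread found here. The main fit had no block for the replicate number. Deviations of same-numbered libraries were not positively correlated, which cannot exclude a pairing with 3 libraries per group. Named genes are the targeted genes, the 15 largest called rises and 15 largest falls (no overlap, a mean of 5 TPM or more in the higher group, no gene-model symbol), and from every list at most the 3 called rises and 3 called falls of smallest adjusted p, or its 2 most abundant members where 0 were called and for marker lists. The lists hold 1155 entries, of which 1151 were found, 6 by an older symbol. Members and lists were chosen with earlier results of these data known. Coordinates and lengths come from GENCODE M21 (GRCm38) by symbol, with lengths for 10834 genes, and promoters from RefSeq (GRCm38.p6). Alternatives were 1 library left out at a time, other pseudocounts and filters, median-of-ratios scaling, quantile normalization, all 9 libraries fitted, array weights, a replicate block, the length trend removed and no intensity trend. An entry without a gene name was left out. Some list members are counted but not named or drawn, since they are not reported here.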

Additional observations from a re-analysis of the deposited data

How the results depend on the processing

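The number of genes called depended on which libraries were kept. Leaving out 1 library at a time called between 0.00918% (1 gene, without wild-type replicate 2) and 8.53% of the genes tested (without knockout replicate 3), against 2.22% with all 6, and between 1 and 37 genes of at least 2-fold, against 25. There were 121 calls (0.596%) with no filter on low values, 150 (1.38%) without the intensity trend, 967 (8.87%) with all 9 libraries fitted and 2862 (26.3%) with array weights, 72 of the last at least 2-fold. A fit of all 3 genotypes without knockout replicate 3, chosen after seeing the data, made 1598 calls (14.7%), 38 of them at least 2-fold. Rises made up 34.7% of the calls in the fit reported and 50% after median-of-ratios scaling or quantile normalization. Median-of-ratios scaling moved the median of all genes from -0.076 to -0.0086, and turned the sign of list medians near 0 (cytokines from -0.05 to 0.02, prostaglandin enzymes from -0.04 to 0.03, lipid handling from -0.01 to 0.06, the tricarboxylic acid cycle from -0.01 to 0.07). Of 104 named genes 80 were called, and these had 1 sign in each alternative that tested them (78 were tested under the filter of 5 TPM). In the fits that left out a library this was fixed in advance, since the groups of these genes did not overlap. In 14 alternatives, that is all except those without a wild-type library and the replicate block, 33 of the 80 were called throughout. Hif1a turned from -0.01 to 0.25 (limma adjusted p = 0.036) in the fit of 3 genotypes without knockout replicate 3, and the cause was not tested. Same-numbered libraries of both genotypes had deviations from their group means that correlated at -0.0794, -0.144 and -0.0643 across genes. Between libraries of different numbers the values ran from -0.0237 to 0.112. With 3 libraries per group and an outlying knockout library, this cannot show whether the numbers pair them. With the replicate number as a block 2 genes were called (0.0184%), Ctse and Slco4a1, and both of these 2 changed at least 2-fold. TPM keep no depth, so no counting error can be attached to a value, and genes of few TPM carry the least certain changes.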

Other observations

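Some further gene groups were put together after values had been seen, so their counts describe these libraries and are no independent support. Over all genes 0.771% rose and 1.45% fell, or 3.27% and 5.26% without knockout replicate 3. A list of nucleolar and ribosome biogenesis factors, which also holds the mitochondrial matrix protein C1qbp, had 7 members that rose, C1qbp among them, and 0 that fell of 42 measured, with a median of 0.24, and 19 rose without knockout replicate 3. Gar1, a subunit of H/ACA ribonucleoproteins, was at 36.8, 39.7 and 38.3 TPM in wild type and at 52.6, 57.5 and 61.1 TPM in the knockout, a rise of 0.56 ± 0.08 (limma adjusted p = 0.021, 0.51 without replicate 3). C1qbp and the rRNA methyltransferase Nop2 rose by 0.52 ± 0.07 and 0.43 ± 0.06 (limma adjusted p = 0.019 and 0.025), and by 0.50 and 0.42 without replicate 3. Of 13 genes of purine synthesis, Impdh2, the first enzyme of guanine nucleotide synthesis, and Adsl rose and 0 fell, and 6 rose without knockout replicate 3. Impdh2 was at 85.0, 84.0 and 85.3 TPM against 116.8, 115.1 and 119.4 TPM and rose by 0.46 ± 0.05 (limma adjusted p = 0.011, 0.45 without replicate 3). All these knockout libraries lay above all wild-type libraries.

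Polyamine genes moved in both directions. Of 10 measured, Odc1, the ornithine decarboxylase that starts polyamine synthesis, and the spermidine synthase Srm rose, and Sat1, the acetyltransferase that starts polyamine breakdown, fell, with 2 rises and 2 falls without knockout replicate 3. Odc1 was at 65.4, 68.0 and 69.5 TPM in wild type and at 96.5, 94.8 and 93.9 TPM in the knockout, a rise of 0.49 ± 0.06 (limma adjusted p = 0.011, 0.50 without replicate 3). Sat1 was at 351, 353 and 344 TPM against 263, 251 and 234 TPM and fell by 0.48 ± 0.06 (limma adjusted p = 0.014, -0.44 without replicate 3). The groups were apart for both. Of 13 tubulins, which share reads through near-identical sequence, Tubb6, Tubb2a and Tuba1c rose and Tuba4a fell, with values of 0.60 ± 0.08, 0.57 ± 0.06, 0.34 ± 0.06 and -0.42 ± 0.07, which were 0.54, 0.52, 0.32 and -0.47 without replicate 3. There were then 5 rises and 1 fall. No gene of these 4 groups was called without wild-type replicate 1, 2 or 3.

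A pair of gene models on the Y chromosome, of 8 Y genes tested, were called in opposite directions. Gm21748 was at 111.5, 135 and 129 TPM in wild type and at 54.4, 45.8 and 47.4 TPM in the knockout, a fall of 1.33 ± 0.10 (limma adjusted p = 0.0055, -1.31 without replicate 3). Gm21857 was at 1.29, 2.59 and 2.28 TPM against 6.08, 7.29 and 6.32 TPM and rose by 1.33 ± 0.19 (limma adjusted p = 0.022, 1.35 without replicate 3). Both belong to unnamed gene models, which can share reads with copies elsewhere. Slc6a12, the betaine transporter, had one of the largest falls below 5 TPM, at 3.48, 4.99 and 3.73 TPM against 0.638, 0.932 and 0.0662 TPM, a change of -1.75 ± 0.25 (limma adjusted p = 0.022, -1.5 without replicate 3).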
